A study of Mus musculus with 17 samples.

Results

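Branched-chain amino acid degradation genes were examined in RNA-seq libraries of mouse bone marrow macrophages (BMMs) and of pre-osteoclasts (preOCs), the cells on the way from macrophage to bone-resorbing osteoclast. The members were 38 named enzymes, subunits and regulators of the pathway, taken as a list of symbols and matched to the Ensembl identifiers of the count tables, which hold 41388 genes. All 38 were found. In each fit 37 of them passed the filter on low counts (described with the processing), and Abat, whose highest level was 0.855 CPM (reads scaled to the size of the library), did not.

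Leucine, isoleucine and valine are first transaminated to branched-chain keto acids, which the branched-chain keto acid dehydrogenase (BCKDH) complex of the mitochondrial matrix then decarboxylates in the committed step. From there each amino acid follows its own branch, and the carbon ends as acetyl-CoA, acetoacetate or, by way of propionyl-CoA, succinyl-CoA, all of which feed or are linked to the tricarboxylic acid cycle. Osteoclasts are rich in mitochondria, and several enzymes of the pathway are shared with fatty acid beta-oxidation, lysine breakdown and aldehyde clearance.

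The study compared mice whose Bap1 alleles carry loxP sites without Cre (Bap1flox) with mice that also carry LysM-Cre (Bap1LysM), in which Cre from the lysozyme locus deletes Bap1, a deubiquitinase of histone H2A, in myeloid cells. The preOCs came from 20-week-old males. BMMs were grown in M-CSF (3 libraries of each genotype), and preOCs in M-CSF with RANKL, the osteoclast differentiation factor, at 100 ng/ml for 24 h (6 Bap1flox and 5 Bap1LysM libraries). Cre is active in all cells of the myeloid lineage and not in osteoclasts alone, and no label says whether a BMM and a preOC library with the same number came from the same mouse, so p-values measure the spread between these 17 libraries.

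Total counts ranged from 37967542 to 61369441 per library. Libraries 1 to 3 and 4 to 6 form separate sets, by the form in which their files were named. Transcripts of the mitochondrial genome took 0.45% to 0.989% of counts in the first set and 2.229% to 4.905% in the second. BMMs exist in the first set only. Lyz2, the locus that carries LysM-Cre, was at 0.146% to 0.436% of the Bap1flox mean in 6 of the 8 Bap1LysM libraries, but at 42.8% in the BMM library labelled Bap1LysM 1 and at 75.1% in the preOC library labelled Bap1LysM 1. The paper's methods give the mice as LysMCre+/-, and no label says which libraries match that genotype. In the other 6 libraries low Lyz2 goes with the Bap1LysM genotype, so effects of the 2 cannot be told apart. Results are also given without the libraries labelled Bap1LysM 1. Counts per gene cover all exons of Bap1, deleted or not, so they are a weak check of the deletion: Bap1 was at 74.8 to 77.1 CPM in Bap1LysM BMMs against 82.1 to 84.4 in Bap1flox BMMs, and at 55.9 to 87.7 against 70.3 to 97.1 in preOCs. The macrophage markers were present in all groups, and the 10 osteoclast markers summed to 6060 CPM or more in each preOC library against 386 or less in each BMM library.

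Levels of different members were compared per length, as CPM per kb of the gene model. Aldh2, the mitochondrial acetaldehyde dehydrogenase, was the highest member in all 4 groups, at 310 ± 5.85 CPM per kb in Bap1flox BMMs (SD, n = 3) and 108 ± 8.89 in Bap1flox preOCs (SD, n = 6). Oxct1, which activates ketone bodies for oxidation, came next in Bap1flox preOCs at 77.5 ± 20.8 CPM per kb, and Dld, the dihydrolipoamide dehydrogenase that BCKDH shares with the pyruvate and oxoglutarate dehydrogenases, followed at 71.8 ± 25. Those neighbours did not differ beyond their spread. In Bap1flox BMMs, Bckdha (49.4 ± 3.36), Oxct1 (48.8 ± 1.34) and Aldh9a1 (44 ± 5.73) filled the places after Aldh2, with ranges that overlapped. The lowest member in every group was Abat, the aminobutyrate transaminase, with 0 to 43 reads per library. Aox1, Bcat1 and Ehhadh lay just above it, with Ehhadh at 1.17 ± 0.189 CPM per kb in Bap1flox BMMs and 0.202 ± 0.125 in Bap1LysM preOCs.

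Partner subunits were not at equal levels. Bckdha exceeded its partner Bckdhb in CPM per kb by 8.92 to 21.2 times over the 17 libraries. Bckdk, the kinase that inhibits BCKDH, exceeded Ppm1k, the phosphatase that reactivates it, by 9.46 to 31.2 times. The mitochondrial transaminase gene Bcat2 was far above the cytosolic Bcat1, whose level per kb was 0.00504 to 0.0867 of that of Bcat2. For the biotin carboxylases the order per kb was the reverse of Bckdha and Bckdhb. Mccc1, the biotin-carrying subunit of methylcrotonyl-CoA carboxylase, was at 0.224 to 0.375 of Mccc2, and Pcca at 0.225 to 0.495 of Pccb. For Mccc1 this order came from the gene model, of 10442 bases against 2123 for Mccc2. In CPM Mccc1 was above Mccc2, at 16.9 against 14.1 in Bap1flox BMMs and 17.4 against 13.2 in Bap1flox preOCs. Pcca was below Pccb in CPM too, at 21 against 44.1 in Bap1flox BMMs.

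**Figure D1:**
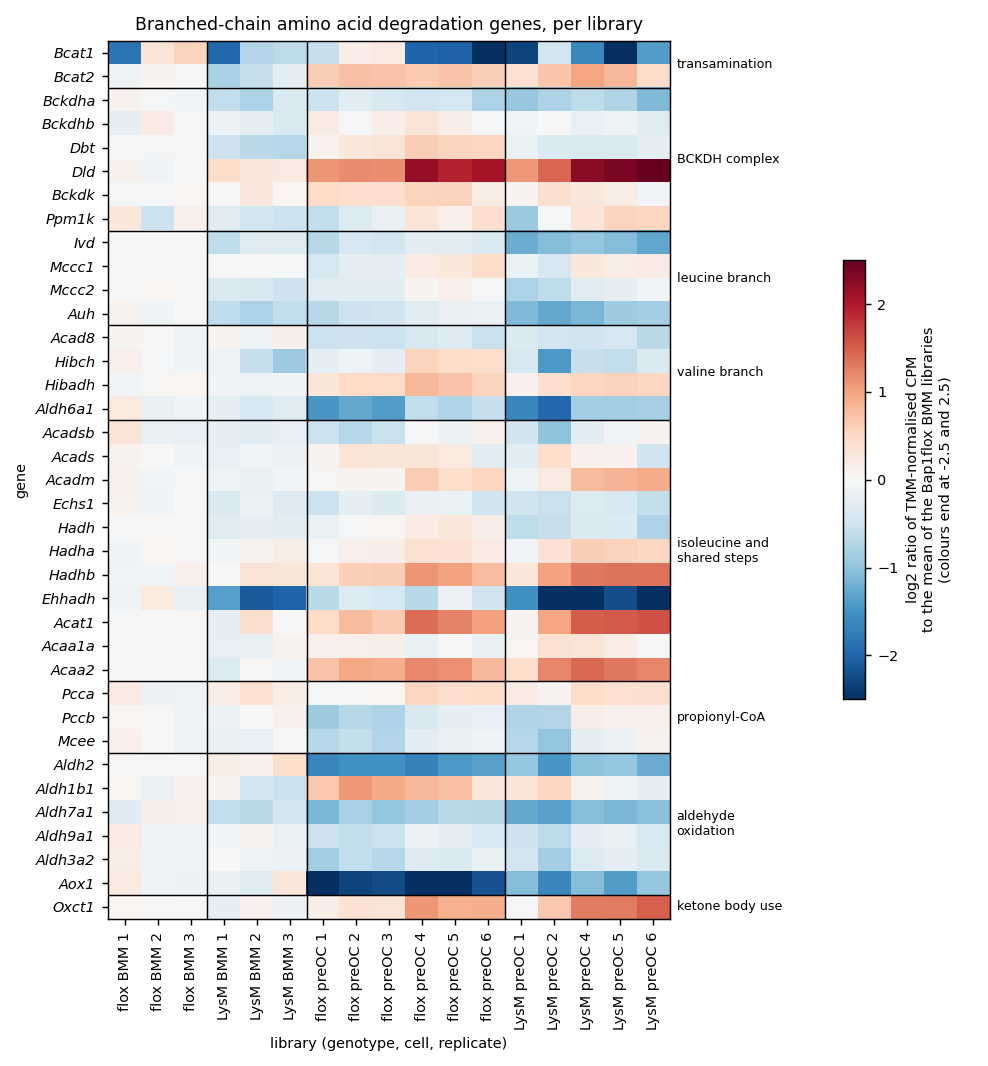
Each row is a member and each column a library. Colour gives the log2 ratio of normalised CPM to the mean of the 3 Bap1flox BMM libraries, black lines part the groups and the roles, and Abat is left out. Dld and Acaa2 are above the BMM level in every preOC library and Aldh2 and Aox1 below it, and Ehhadh is low in Bap1LysM libraries of both cell types.

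Which members differ in preOCs and BMMs that lack Bap1 was asked first. In preOCs 9 of 37 members were lower in Bap1LysM and 2 were higher, at an adjusted p under 0.05 by the quasi-likelihood test of edgeR. Over all 12929 genes tested, 8.68% were called lower and 7.12% higher, or 15.8% in all. The members called lower were Bckdha, Dbt, Ivd, Auh, Hibch, Hadh, Ehhadh, Aldh1b1 and Aldh7a1, and those called higher were Aldh2 and Aox1. The study singled out this pathway among genes lower in these same preOC libraries, so the count is no independent evidence of its direction. The median log2 fold change was -0.04 over the 37 members and -0.01 over all genes. By voomWithQualityWeights, the test of the study's methods, 11 members were called lower and 10 higher, with 54.9% of all genes called. It gained Dld, Acadm, Hadha, Hadhb, Acat1, Acaa2, Pccb and Oxct1 as higher and Bckdhb and Bckdk as lower. In BMMs 4 of 37 members were lower, namely Bckdha, Dbt, Auh and Ehhadh, and none was higher. Over all 13028 genes tested in BMMs, 4.01% were called lower and 1.31% higher, or 5.32% in all. The split depended on the fit: 171 of 693 calls were higher by edgeR, against 880 of 2065 by DESeq2, 721 of 1772 by voomWithQualityWeights and 1011 of 2013 in the fit of all 17 libraries. At an unadjusted p under 0.05 the edgeR test passed 13 members in BMMs in either direction (26.2% of all genes), and DESeq2 and voomWithQualityWeights each called 1 member, Dld, higher and 9 lower at the adjusted threshold, where they called 15.9% and 13.6% of all genes. On simulated BMM counts 24.2% of the calls by DESeq2 were false, against 4.4% by edgeR and 3.2% by voomWithQualityWeights. Those counts were drawn with the spread that edgeR estimated and 200 changed genes, so these shares need not hold in the real data. The median was -0.15 over the members and -0.01 over all genes. All 4 members called lower in BMMs were also called lower in preOCs, as were 224 of the 522 genes called lower in BMMs (42.9% of these, and 20% of the 1122 called lower in preOCs). From bulk RNA, fewer cells of a type and less RNA per cell cannot be told apart.

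**Figure D2:**
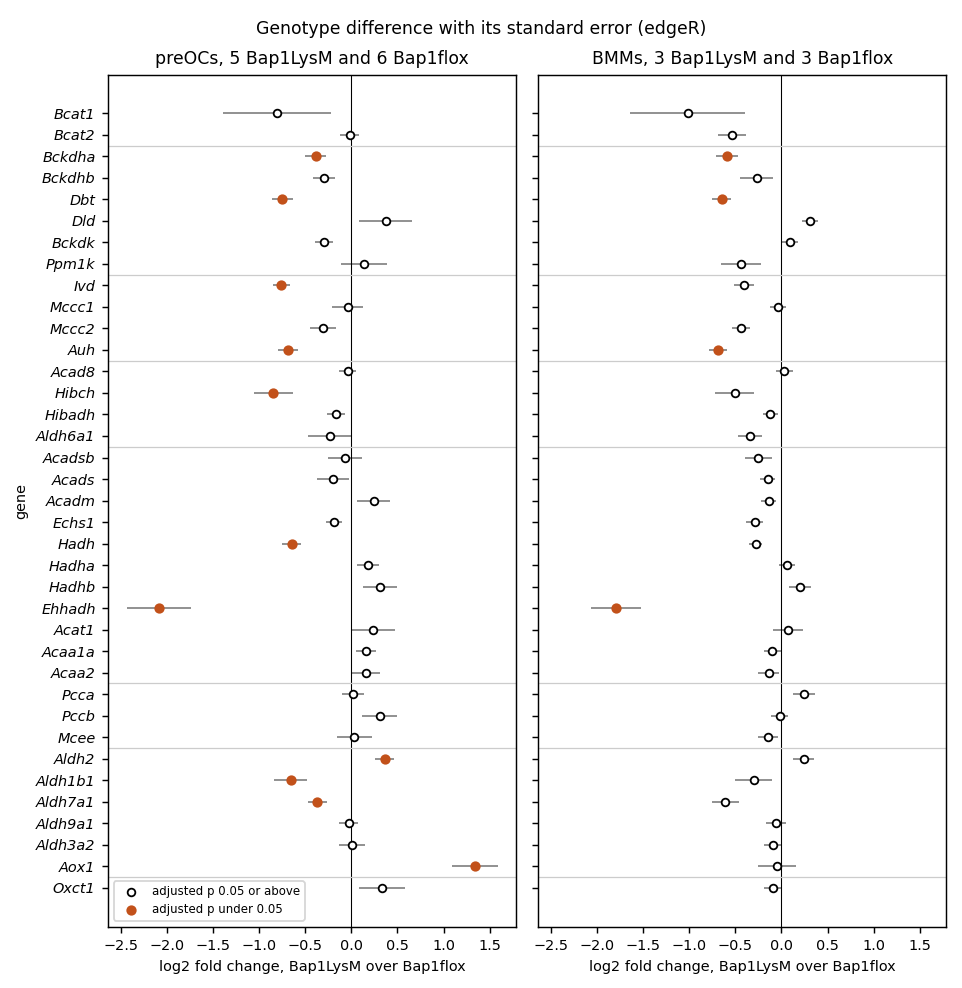
Points give the log2 fold change of Bap1LysM over Bap1flox in preOCs (left) and BMMs (right) for 37 members, bars the standard error, and filled points an adjusted p under 0.05. Grey lines part the roles in the order of the text. Ehhadh has the largest difference in both panels, -2.09 and -1.80, and Aox1 is higher in preOCs by 1.34 with -0.05 in BMMs.

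At the transamination step neither gene passed the test. Bcat2 was at 127 ± 22.1 CPM (SD, n = 5) in Bap1LysM and 125 ± 5.17 (SD, n = 6) in Bap1flox preOCs. In BMMs it was at 44.4, 52.6 and 66 CPM in Bap1LysM libraries 1, 2 and 3, against 72.2, 82.5 and 80.3 in their Bap1flox counterparts. The BMM groups did not overlap, which held in that direction for 14 of 37 members and for 16.8% of all genes. The log2 fold change was -0.54 ± 0.15 (SE; adjusted p = 0.084), and it passed with the replicate block (adjusted p = 0.023).

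Of the 6 genes of the BCKDH complex and its regulators, Bckdha and Dbt were called lower in both cell types. Dbt (chr3:116513070-116549976, plus strand) encodes the lipoyl-bearing transacylase core of the complex. It had 17.5, 22.2 and 25.2 CPM as lowest, median and highest of the Bap1flox preOC libraries, and 14.5, 12.7, 12.5, 12.8 and 13.9 CPM in Bap1LysM preOC libraries 1, 2, 4, 5 and 6. Each Bap1LysM library was below each Bap1flox library, as it was for 6 members and for 5.37% of all genes. The log2 fold change was -0.75 ± 0.11 (SE; adjusted p = 0.0013). In BMMs Dbt was at 16.5, 16.1 and 16.5 CPM in Bap1flox and 11.4, 10.3 and 10 in Bap1LysM libraries 1, 2 and 3, which gave -0.65 ± 0.10 (SE; adjusted p = 0.025). The BMM call held in 2 of the 6 fits that left out 1 library, and was lost without any of the 3 Bap1flox libraries or without Bap1LysM BMM 2.

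Bckdha (chr7:25629852-25658761, minus strand) encodes the alpha subunit of the decarboxylase component. The Bap1flox BMM libraries had 94.5, 84.2 and 84.1 CPM and the Bap1LysM ones 56.9, 50.8 and 68.3, a log2 fold change of -0.59 ± 0.12 (SE; adjusted p = 0.043). In preOCs the lowest, median and highest Bap1flox library had 50.3, 63.7 and 72.4 CPM, against 45.6, 51.4, 56.5, 52.2 and 40.5 in Bap1LysM libraries 1, 2, 4, 5 and 6. The preOC groups overlapped, and the log2 fold change of -0.39 ± 0.11 (SE; adjusted p = 0.039) was close to the threshold: the call was lost when any of 9 of the 11 libraries was left out. The BMM call held in 1 of 6 such fits, the one without Bap1LysM BMM 3. Without the preOC library labelled Bap1LysM 1 it was -0.37 (adjusted p = 0.051), and without the BMM library of that label -0.57 (adjusted p = 0.092).

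The other genes of the complex did not pass. Bckdhb, the partner of Bckdha, gave -0.30 ± 0.12 in preOCs (adjusted p = 0.11, or 0.048 once the library set was fitted) and -0.27 ± 0.18 in BMMs (adjusted p = 0.36). Bckdk gave -0.30 ± 0.10 in preOCs (adjusted p = 0.071), and it passed there with the replicate block (adjusted p = 0.016). Dld gave 0.37 ± 0.29 in preOCs (adjusted p = 0.42), but was called higher there by voomWithQualityWeights (adjusted p = 0.015) and in the fit of all 17 libraries that held the set (adjusted p = 0.032). In BMMs its Bap1LysM libraries (69.3, 61.3 and 58.3 CPM) all lay above the Bap1flox libraries (53.8, 47.2 and 49.6 CPM). The BMM groups were apart in that direction for 2 of 37 members and for 17.2% of all genes. The Dld difference of 0.31 ± 0.09 had an adjusted p of 0.096, or 0.049 with the replicate block. Ppm1k passed in neither.

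In the leucine branch Ivd and Auh were lower and the carboxylase subunits were not called. Ivd (chr2:118861954-118882909, plus strand), the isovaleryl-CoA dehydrogenase of the first step after BCKDH, was at 46.2, 56.7 and 61.9 CPM as lowest, median and highest in Bap1flox preOCs against 31.3, 34.9, 38, 35 and 30.1 in Bap1LysM preOC libraries. The groups did not overlap, and the log2 fold change was -0.76 ± 0.09 (SE; adjusted p = 0.00061), a level of 0.59 times Bap1flox. In BMMs the groups again did not overlap (47.9, 60.4 and 60.5 against 75.3, 75.4 and 72 CPM), with -0.41 ± 0.11 (SE; adjusted p = 0.072, and 0.04 with the replicate block). Auh (chr13:52835119-52929681, minus strand), the methylglutaconyl-CoA hydratase, was lower in both cell types. It was at 18.5, 22.5 and 26.4 CPM as lowest, median and highest in Bap1flox preOCs against 13.8, 12.3, 13.5, 16.1 and 16.5 in Bap1LysM, and in BMMs it had 31.8, 27.5 and 30 CPM against 19.2, 17.1 and 19.4. The log2 fold change was -0.69 ± 0.11 in preOCs (SE; adjusted p = 0.0028) and -0.69 ± 0.10 in BMMs (SE; adjusted p = 0.021), without overlap in either. Mccc2 gave -0.31 ± 0.14 in preOCs (adjusted p = 0.15) and -0.44 ± 0.10 in BMMs (adjusted p = 0.059), and passed with the replicate block in both (adjusted p = 0.021 and 0.044). Mccc1 gave -0.04 in both.

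In the valine branch Hibch (chr1:52844929-52920986, plus strand), the hydroxyisobutyryl-CoA hydrolase, was lower in preOCs. Its Bap1flox preOC libraries had 7.93, 10.6 and 13.6 CPM as lowest, median and highest, and the Bap1LysM libraries 7.06, 3.44, 6.21, 6.04 and 7.29. The groups did not overlap, and the log2 fold change was -0.85 ± 0.21 (SE; adjusted p = 0.021). It lost its call without Bap1flox preOC 4, Bap1LysM preOC 4 or Bap1LysM preOC 5 (adjusted p up to 0.054). In BMMs the difference of -0.51 ± 0.21 had an adjusted p of 0.18. Acad8, the isobutyryl-CoA dehydrogenase, gave -0.04 ± 0.09 in preOCs and 0.03 ± 0.09 in BMMs, Hibadh -0.17 ± 0.10 and -0.12 ± 0.08, and Aldh6a1, the methylmalonate semialdehyde dehydrogenase, -0.23 ± 0.24 and -0.34 ± 0.13. None of these passed. Once the library set was fitted, Aldh6a1 gave -0.33 ± 0.09 in preOCs (adjusted p = 0.016).

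Among the 11 genes of the isoleucine branch and the shared acyl-CoA steps, Ehhadh and Hadh were lower. Ehhadh (chr16:21761287-21787844, minus strand) encodes the peroxisomal bifunctional hydratase and dehydrogenase and had the largest difference of all members in both cell types. Among preOCs the lowest, median and highest Bap1flox library had 2.17, 2.53 and 3.17 CPM, against 1.21, 0.344, 0.361, 0.76 and 0.37 in Bap1LysM libraries 1, 2, 4, 5 and 6. Among BMMs the Bap1flox libraries had 3.31, 4.16 and 3.08 CPM and the Bap1LysM libraries 1.35, 0.824 and 0.879. The groups were apart in both cell types, and in both the library labelled Bap1LysM 1 was the highest of its group. The log2 fold change was -2.09 ± 0.35 (SE; adjusted p = 0.0028) in preOCs, or 0.235 times Bap1flox, and -1.80 ± 0.27 (SE; adjusted p = 0.022) in BMMs, or 0.286 times. Without the libraries labelled Bap1LysM 1 it was -2.51 ± 0.28 and -2.06 ± 0.26. These levels rest on few reads, 110 to 161 per Bap1flox preOC library and 14 to 61 per Bap1LysM preOC library.

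Hadh (chr3:131233419-131272101, minus strand), the mitochondrial hydroxyacyl-CoA dehydrogenase for short chains, had 49.4, 59 and 67.1 CPM as lowest, median and highest of the Bap1flox preOC libraries, against 35.5, 36.9, 42.9, 43.2 and 32.5 in Bap1LysM preOCs. The groups did not overlap, and the log2 fold change was -0.65 ± 0.10 (SE; adjusted p = 0.002). In BMMs all Bap1LysM libraries (45.1, 47.2 and 45.6 CPM) were also below the Bap1flox libraries (54.8, 56.2 and 54.8), but the difference of -0.28 ± 0.07 had an adjusted p of 0.063. The trifunctional protein genes Hadha and Hadhb, which serve long chains, had differences of 0.18 ± 0.12 and 0.31 ± 0.18 in preOCs, of the other sign. They did not pass (adjusted p = 0.33 and 0.28). They were called higher once the preOC library labelled Bap1LysM 1 was left out, together with Acaa2, a mitochondrial thiolase. The other members here, Acadsb, Acads, Acadm, Echs1, Acat1 and Acaa1a, passed by edgeR in neither cell type, while voomWithQualityWeights called Acadm and Acat1 higher in preOCs.

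None of the 3 propionyl-CoA genes passed in either cell type. Pccb gave 0.31 ± 0.19 in preOCs (adjusted p = 0.31), but was called higher there by voomWithQualityWeights (adjusted p = 0.003), in replicates 4 to 6 alone (adjusted p = 0.0098) and in a fit of all 17 libraries that also held the set (adjusted p = 0.024). Pcca gave 0.02 ± 0.12 and Mcee, the methylmalonyl-CoA epimerase, 0.03 ± 0.19. Oxct1 gave 0.33 ± 0.25 (adjusted p = 0.41), and it too was called higher by voomWithQualityWeights and in replicates 4 to 6 alone.

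The aldehyde oxidation genes went both ways in preOCs. Aox1 (chr1:58029931-58106413, plus strand), the cytosolic molybdenum-dependent aldehyde oxidase, had 0.593, 0.979 and 1.28 CPM as lowest, median and highest of the Bap1flox preOC libraries, against 2.71, 1.87, 2.72, 2.2 and 2.96 in the Bap1LysM ones. It was the one member whose groups did not overlap in the upward direction, against 4.09% of all genes, and its log2 fold change was 1.34 ± 0.25 (SE; adjusted p = 0.0046), or 2.52 times Bap1flox. In BMMs it did not differ by the test: the Bap1flox libraries had 6.78, 5.34 and 5.21 CPM and the Bap1LysM libraries 5.11, 4.68 and 7.05, with -0.05 ± 0.21 (SE; adjusted p = 0.89). Aldh2 (chr5:121566027-121593824, minus strand) had 457, 510 and 572 CPM as lowest, median and highest of the Bap1flox preOC libraries, against 736, 531, 718, 752 and 618 in Bap1LysM. Its groups overlapped through 1 Bap1LysM library, the second. The log2 fold change was 0.36 ± 0.10 (SE; adjusted p = 0.037), a call kept in 4 of the 11 fits that left out 1 library and lost with upper-quartile factors (adjusted p = 0.056).

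Aldh1b1 and Aldh7a1 were lower. Aldh1b1 (chr4:45799022-45804604, plus strand), a mitochondrial relative of Aldh2, had 10.8, 15.4 and 18.9 CPM as lowest, median and highest in Bap1flox preOCs, against 11.2, 12.9, 9.52, 8.15 and 7.66 in Bap1LysM, with -0.66 ± 0.18 (SE; adjusted p = 0.03). Aldh7a1, which oxidises the semialdehyde of lysine breakdown, had 22, 27.3 and 30.5 CPM against 19.9, 18.8, 23.1, 21.8 and 23.6, with -0.37 ± 0.10 (SE; adjusted p = 0.026). Both pairs of groups overlapped, and the calls held in 4 and 6 of the 11 fits that left out 1 library. In BMMs neither passed (adjusted p = 0.36 and 0.063), though Aldh7a1 did with the replicate block (-0.59 ± 0.12; adjusted p = 0.03). Aldh9a1, which makes the carnitine precursor trimethylaminobutyrate, and Aldh3a2, the fatty aldehyde dehydrogenase, had preOC differences of -0.03 and 0.01.

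**Figure D3:**
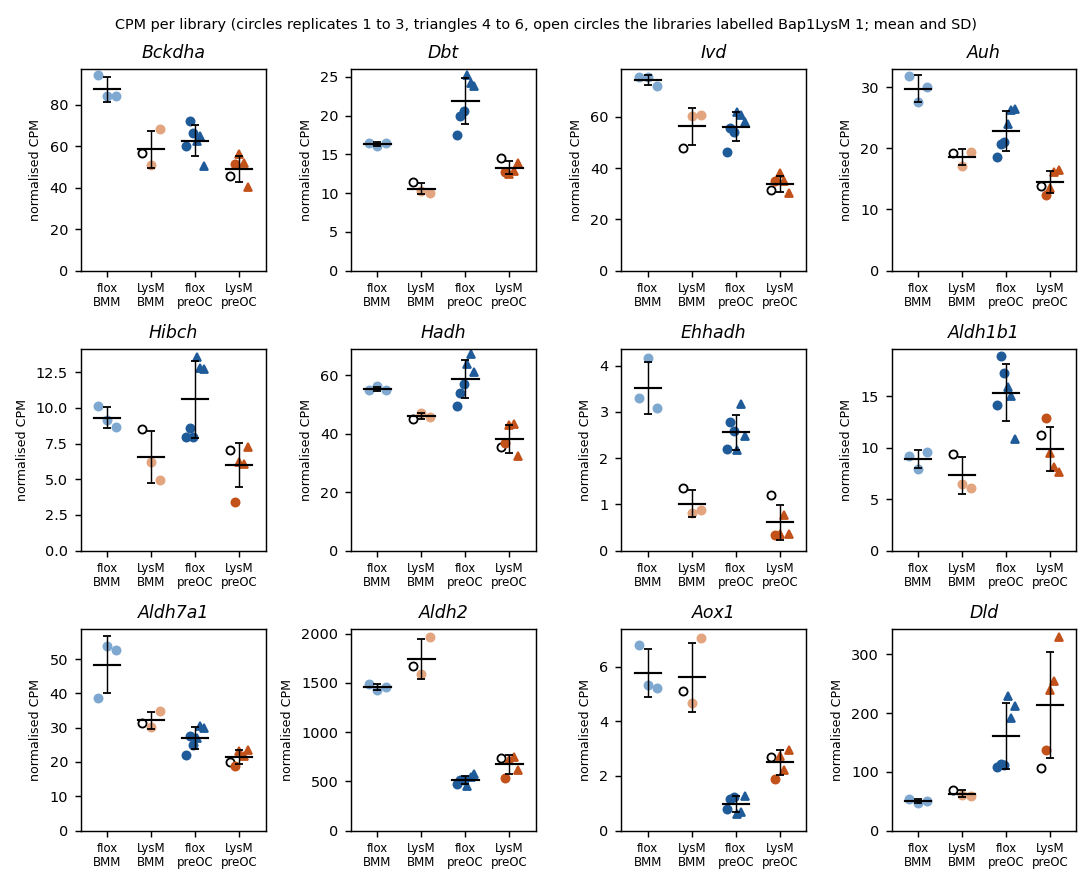
Normalised CPM of 12 members in the 17 libraries, with the mean and SD of each group as bars. Circles are replicates 1 to 3 and triangles 4 to 6, open circles mark the libraries labelled Bap1LysM 1, and all vertical axes start at 0. Dbt, Auh and Ehhadh are lower in Bap1LysM in both cell types without overlap, Aox1 is higher in Bap1LysM without overlap in preOCs and overlaps in BMMs, and Dld separates by library set within preOCs.

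Dbt, Ivd, Auh, Hadh, Ehhadh and Aox1 kept their preOC calls in all 11 fits that left out 1 library. Within replicates 4 to 6 alone, 10 of the 11 preOC calls held, and Bckdha gave -0.29 ± 0.14 (adjusted p = 0.14), while Acadm, Hadhb, Pccb and Oxct1 were gained as higher and 32.2% of all genes were called. When the set was added to the fit of all preOCs, 13 members were lower and 2 higher, with Bckdhb, Bckdk, Mccc2 and Aldh6a1 gained as lower, where 33.6% of all genes were called. With no filter on low counts Bckdha, Aldh7a1 and Aldh2 lost their preOC calls. Within replicates 1 to 3 alone, all 11 kept their direction, but edgeR called no gene at all among 12929 there (3 against 2 libraries). At an unadjusted p under 0.05 edgeR passed 2289 genes there (17.7%) and 10 of 37 members, and no other tool was run on that set. In it Ehhadh gave -1.69 ± 0.53 (adjusted p = 0.23), Ivd -0.68 ± 0.13 (adjusted p = 0.17) and Aox1 1.09 ± 0.32 (adjusted p = 0.21). In BMMs no member stayed called as lower without Bap1flox BMM 2, without Bap1flox BMM 3 or without Bap1LysM BMM 2, fits in which 0.0537%, 0.0307% and 0.645% of all genes were called.

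Markers of other cells moved with genotype in the same preOC libraries. Of 9 neutrophil markers tested, 7 were higher in Bap1LysM preOCs, and the 10 listed summed to 176 to 629 CPM there against 64 to 187 in Bap1flox. The 6 B cell markers summed to 6.35 to 41.8 CPM against 6.75 to 14.7, and of the 2 tested Ighm was higher (1.34 ± 0.42). In BMMs the B cell marker Cd79b was lower in Bap1LysM (-1.05 ± 0.20). Stromal markers summed to 124 to 1410 CPM in Bap1LysM and 222 to 2200 in Bap1flox preOCs, and to 451 to 1500 against 597 to 3160 in BMMs. Of the macrophage markers Csf1r (0.41 ± 0.10) and Mertk (1.26 ± 0.30) were higher in Bap1LysM preOCs, and of the 10 osteoclast markers Dcstamp (-0.69 ± 0.17) was lower and the other 9 did not pass, with a median of 0.23 over the list. Erythroid and adipocyte markers summed to under 1 CPM in every library. No neutrophil or B cell marker was at 0 in all libraries of a preOC group. Within each library set the share of mitochondrial-genome transcripts was also high in Bap1LysM preOCs, at 0.965% and 0.989% against 0.45% to 0.962% in Bap1flox in replicates 1 to 3, and at 3.139% to 4.905% against 2.229% to 3.43% in replicates 4 to 6. Ribosomal RNA took 0.0574% and 0.0876% against 0.0319% to 0.0595% in the first set, and 0.2455% to 0.3592% against 0.1374% to 0.2093% in the second. The part of these markers and shares in the results was not tested.

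The promoters of 3 of the 4 members lower in both cell types are shown, since these genes were called lower in both macrophages and preOCs. They are the 250 bases upstream of the RefSeq start, 5′ to 3′ on the gene's strand, from RefSeq's GRCm38.p6, and capitals mark matches on either strand to the letters of a CCAAT box (CCAAT) or a GC box (GGGCGG). The table used held promoters of 32 members, Dbt not among them.
Bckdha promoter, chr7:25658762-25659011, minus strand: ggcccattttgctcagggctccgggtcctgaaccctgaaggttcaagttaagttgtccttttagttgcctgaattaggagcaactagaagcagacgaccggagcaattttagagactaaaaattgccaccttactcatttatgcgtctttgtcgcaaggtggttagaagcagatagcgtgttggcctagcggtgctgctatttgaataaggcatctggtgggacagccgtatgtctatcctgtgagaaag
Auh promoter, chr13:52929678-52929927, minus strand: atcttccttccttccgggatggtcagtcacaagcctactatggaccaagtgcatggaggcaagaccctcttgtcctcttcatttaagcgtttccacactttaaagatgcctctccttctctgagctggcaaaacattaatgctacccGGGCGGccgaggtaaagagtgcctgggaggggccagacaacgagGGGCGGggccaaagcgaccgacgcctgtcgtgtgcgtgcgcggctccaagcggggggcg
Ehhadh promoter, chr16:21787835-21788084, minus strand: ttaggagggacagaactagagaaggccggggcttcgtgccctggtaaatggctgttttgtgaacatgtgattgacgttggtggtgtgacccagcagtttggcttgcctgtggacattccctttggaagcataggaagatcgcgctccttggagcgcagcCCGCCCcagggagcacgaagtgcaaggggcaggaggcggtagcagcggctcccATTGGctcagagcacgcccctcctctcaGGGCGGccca
Of 8 motifs searched, Bckdha matched none, Auh matched the GC box starting 103 and 59 bases before the start, and Ehhadh matched the GC box 91 and 10 bases and the CCAAT box 38 bases before it. The CCAAT box was found in 37.5% of 27025 genes with a promoter and in 19 of the 32 members, and the GC box in 35.4% and in 20 members. Neither motif was common to the 3 genes. The palindromic E-box CACGTG (6.86% of all genes) was in Aldh3a2 and Mccc2 alone among the members, and the FOX letters GTAAACA (3.54%) in Hibadh alone. No member promoter held the CRE letters TGACGTCA (1.77%), the YY1 letters AAGATGGC (1.83%), the ERR letters TCAAGGTCA (0.422%) or the PPAR element, a direct repeat (0.0407%), all searched on both strands.

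The response of the pathway to RANKL was examined next, in replicates 1 to 3, the ones with both cell types. In Bap1flox 8 of 37 members were higher in preOCs than in BMMs and 16 were lower, where 29.4% of all 13637 genes tested were called higher and 28.7% lower, or 58.1% in all. The median log2 fold change was -0.18 over the members and -0.03 over all genes. In Bap1LysM 7 members were higher and 12 lower, against 21.2% and 17.7% of all genes (38.9% in all), with medians of -0.25 and 0.01. The 2 comparisons share no library, but 1 estimate of the spread, and the Bap1LysM one rests on 2 preOC libraries. Without both libraries labelled Bap1LysM 1 it rests on 1 preOC library. The medians were then -0.21 over the members and 0.01 over all genes. Fits that leave out Bap1LysM preOC 1 or 2 alone also rest on 1 such library. By voomWithQualityWeights Bap1LysM kept 3 higher and 7 lower (21.5% of all genes called), losing Dbt, Hibadh, Acaa1a and Aldh1b1 as higher and Auh, Acad8, Hadh, Aldh7a1 and Aox1 as lower. With Bap1LysM libraries only it kept 3 higher and 8 lower (18.7% of all genes called), losing the same 4 as higher and Auh, Acad8, Hadh and Aldh3a2 as lower. Markers of the cells changed in the same comparison. Of 8 macrophage markers 7 were lower in preOCs of Bap1flox and 6 in those of Bap1LysM, with medians of -1.31 and -1.12. Both B cell markers tested, Ighm and Cd79b, were lower in both genotypes. The 6 B cell markers summed to 96.4 to 122 CPM in Bap1flox BMMs and 6.75 to 14.7 CPM in Bap1flox preOCs 1 to 3. No neutrophil marker passed, and of 7 stromal markers tested Dcn alone rose, in Bap1flox. The part of these changes in the members' values was not tested.

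Of the 6 aldehyde oxidation genes 5 were lower and 1 was higher with RANKL in either genotype. Aldh2 had 1490, 1430 and 1460 CPM in Bap1flox BMMs, against 474, 510 and 510 in preOC libraries 1, 2 and 3, a log2 fold change of -1.55 ± 0.13 (SE; adjusted p = 2.5e-05). In Bap1LysM the BMM libraries had 1670, 1590 and 1970 CPM, against 736 and 531 in preOC libraries 1 and 2, or -1.45 ± 0.15 (SE; adjusted p = 0.00017). Aldh2 alone made up 44.6% to 45% of the summed CPM of all members in Bap1flox BMMs and 20.7% to 21.2% in Bap1flox preOCs 1 to 3. In Bap1flox alone Aox1 had the largest fall, from 6.78, 5.34 and 5.21 CPM in BMMs to 0.799, 1.16 and 1.23 in preOCs (-2.44 ± 0.25; adjusted p = 5.3e-05). In Bap1LysM it fell from 5.11, 4.68 and 7.05 CPM to 2.71 and 1.87 (-1.29 ± 0.28; adjusted p = 0.0054). Aldh7a1 fell from 38.7, 53.8 and 52.7 CPM to 22, 27.5 and 24.9 in Bap1flox (-0.96 ± 0.14; adjusted p = 0.00028) and by 0.73 ± 0.16 on the log2 scale in Bap1LysM. Aldh9a1 and Aldh3a2 fell in both genotypes, by 0.55 and 0.72 on the log2 scale in Bap1flox. Without Bap1LysM preOC 2, the Bap1LysM calls of Aox1, Aldh9a1, Aldh3a2 and Aldh1b1 were lost, and that of Aldh1b1 also without Bap1LysM BMM 2 or 3. Aldh1b1 went the other way, from 9.21, 7.97 and 9.62 CPM to 14.2, 18.9 and 17.3 in Bap1flox (0.91 ± 0.18; adjusted p = 0.0019), and by 0.73 ± 0.20 in Bap1LysM (adjusted p = 0.017).

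Of the 8 genes of transamination and the BCKDH complex 3 rose in Bap1flox, 1 fell and 4 did not pass. Bcat2 rose from 72.2, 82.5 and 80.3 CPM to 120, 130 and 129 in Bap1flox (0.69 ± 0.14; adjusted p = 0.0021) and by 1.07 ± 0.16 in Bap1LysM (adjusted p = 0.00073). Dld had the largest rise of the members in Bap1flox, from 53.8, 47.2 and 49.6 CPM to 108, 114 and 112 (1.15 ± 0.11; adjusted p = 3.3e-05) and from 69.3, 61.3 and 58.3 to 107 and 138 in Bap1LysM (0.96 ± 0.12; adjusted p = 0.00032). Bckdk rose in Bap1flox (0.45 ± 0.10; adjusted p = 0.0041) and gave 0.15 ± 0.12 in Bap1LysM (adjusted p = 0.34). Bckdha was the member of the complex that fell, in Bap1flox (-0.40 ± 0.12; adjusted p = 0.017), with -0.27 ± 0.14 in Bap1LysM (adjusted p = 0.14). The Bckdha call was lost without Bap1flox BMM 1 or Bap1flox preOC 1 (adjusted p up to 0.065).

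In the leucine branch all 4 genes passed as lower in Bap1flox. Ivd fell by 0.51 ± 0.11 and Auh by 0.56 ± 0.10 on the log2 scale (adjusted p = 0.0029 and 0.001), and Mccc1 and Mccc2 by 0.29 and 0.28 (adjusted p = 0.028 and 0.029). The Mccc1 call was lost without any one of 4 libraries and the Mccc2 call without any one of 6, and both were lost with the replicate block and with no filter. In Bap1LysM Ivd (-0.76 ± 0.13) and Auh (-0.51 ± 0.12, not called without Bap1LysM preOC 2) passed, and Mccc1 and Mccc2 gave -0.26 and -0.28 (adjusted p = 0.096 and 0.068). In the valine branch Aldh6a1 fell from 23.3, 17.2 and 18.4 CPM to 7.17, 8.05 and 7.43 in Bap1flox (-1.38 ± 0.14; adjusted p = 5.1e-05) and from 16.5, 14.5 and 16 to 6.35 and 5.06 in Bap1LysM (-1.45 ± 0.17; adjusted p = 0.00024). Acad8 fell in both genotypes (-0.53 and -0.46). Hibadh, the hydroxyisobutyrate dehydrogenase between them, rose in both (0.44 ± 0.10 and 0.38 ± 0.11), though its Bap1LysM call was lost without Bap1LysM BMM 2 or Bap1LysM preOC 2 and with no filter, besides the losses given above.

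Of the 11 genes of the isoleucine branch and the shared steps 3 rose and 2 fell in Bap1flox, and 2 rose and 1 fell in Bap1LysM. Acaa2 rose by 0.87 ± 0.18 in Bap1flox and 1.00 ± 0.20 in Bap1LysM (adjusted p = 0.0022 and 0.0033). Acat1, the mitochondrial acetoacetyl-CoA thiolase of the isoleucine branch, rose by 0.65 ± 0.22 in Bap1flox (adjusted p = 0.029) and gave 0.52 ± 0.25 in Bap1LysM (adjusted p = 0.12). Hadhb rose in Bap1flox (0.52 ± 0.17; adjusted p = 0.025) and gave an adjusted p of 0.075 in Bap1LysM. The Acat1 and Hadhb calls held in 6 and 7 of the 11 fits that left out 1 library, being lost without Bap1flox BMM 1 or 2 or Bap1flox preOC 2 or 3, and Acat1 also without Bap1flox BMM 3. Acadsb, the dehydrogenase of the isoleucine-derived acyl-CoA, fell by 0.60 ± 0.17 and Echs1, the hydratase used by several branches, by 0.37 ± 0.10 in Bap1flox (adjusted p = 0.011 and 0.0072). Hadh fell in Bap1LysM (-0.34 ± 0.08; adjusted p = 0.0094) and gave -0.05 ± 0.07 in Bap1flox (adjusted p = 0.61). By edgeR Acaa1a and Dbt were called higher in Bap1LysM alone (0.32 ± 0.11 and 0.37 ± 0.12). Those calls held in 2 and 8 of the 11 fits that left out 1 library. By voomWithQualityWeights both were called higher in Bap1flox and neither in Bap1LysM. Dbt was also called higher in Bap1flox with upper-quartile factors and in the fit of all 17 libraries. Of the propionyl-CoA genes Pccb (-0.78 ± 0.09) and Mcee (-0.67 ± 0.11) fell in Bap1flox and in Bap1LysM (-0.74 and -0.71), while Pcca gave -0.01 and -0.12.

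**Figure D4:**
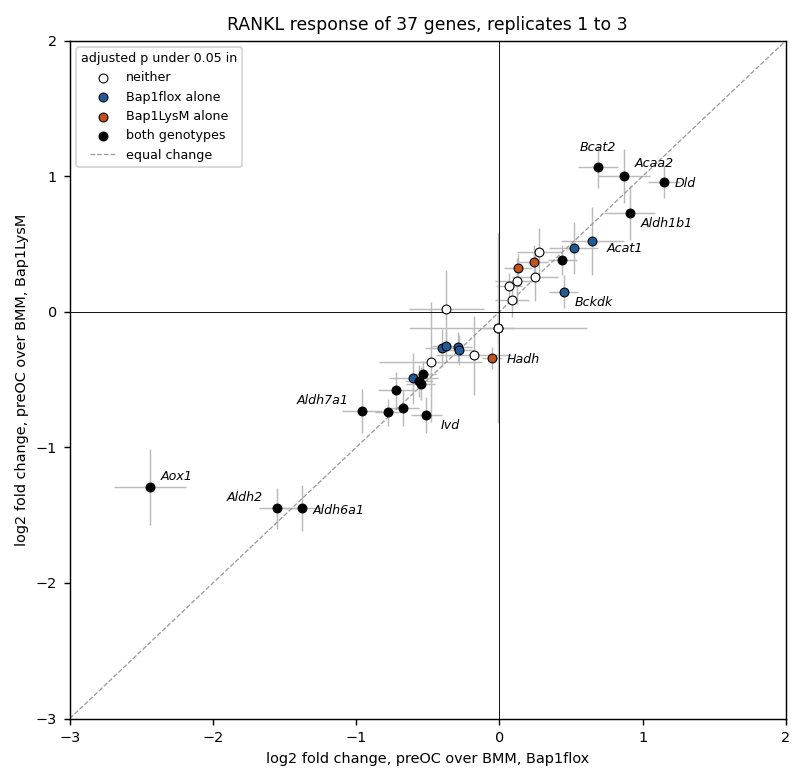
The log2 fold change of preOCs over BMMs in Bap1flox (horizontal) is plotted against that in Bap1LysM (vertical) for 37 members, with standard errors as grey bars and a dashed line of equal change. Fill shows where the adjusted p was under 0.05. Most points lie near the line, and Aox1 lies farthest from it, at -2.44 and -1.29.

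A difference between genotypes in the RANKL response was tested as an interaction. No member and none of the 13637 genes passed by edgeR, and none passed by voomWithQualityWeights. DESeq2 called 117 genes and none of the members. At an unadjusted p under 0.05 edgeR passed 1718 genes (12.6%) and 2 of 37 members. These were Aox1, whose fall was smaller in Bap1LysM by 1.15 ± 0.36 (SE; adjusted p = 0.34), and Hadh (-0.29 ± 0.11; adjusted p = 0.35). In a fit of all 17 libraries with the library set as a term, Aox1 was the 1 member that passed (1.43 ± 0.35; adjusted p = 0.022), where 1444 genes or 10.6% were called. Without the libraries labelled Bap1LysM 1 its interaction was 0.79 ± 0.43 (adjusted p = 0.4). Genes called in 1 genotype alone, such as Bckdk, Acat1 or Hadh, are thus not shown to respond differently.

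The 2 library sets of preOCs differed in these genes within each genotype, as a description with no test. Of 37 members, 17 were higher in every library of replicates 4 to 6 than in every library of replicates 1 to 3 in both genotypes, and none was lower in both, where 23.9% of all 12929 genes were higher and 17.3% lower by that rule. Dld had 108, 114 and 112 CPM in Bap1flox preOC libraries 1 to 3 and 229, 191 and 212 in libraries 4 to 6, and in Bap1LysM 107 and 138 against 240, 255 and 329. Oxct1 had 201, 231 and 226 CPM against 388, 335 and 341 in Bap1flox, and 176 and 287 against 437, 443 and 510 in Bap1LysM. Pccb, the enzyme subunit that fell with RANKL in replicates 1 to 3, had 26 and 26.5 CPM in Bap1LysM libraries 1 and 2 and 49.2, 47.4 and 48.2 in libraries 4, 5 and 6. The share of mitochondrial-genome transcripts moved with these levels, as given above. Its part was not tested, and culture and sequencing of the sets cannot be told apart.

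Bcat1, the cytosolic transaminase, was chosen for description after its values were seen. It varied widely between libraries of a group, from 3.2 to 16.6 CPM in Bap1flox BMMs and from 1.82 to 13.2 CPM in Bap1flox preOCs. The 7 libraries with the most Bcat1 were the 7 with the highest summed level of 8 stromal markers (Col1a1, Col1a2, Col3a1, Dcn, Lum, Cxcl12, Pdgfra and Sparc). At the top, Bap1flox BMM 3 had 16.6 CPM of Bcat1 beside 3160 CPM of stromal markers, and at the bottom Bap1LysM preOC 5 had 1.69 beside 124. The 7 libraries come from all 4 groups, and all are of replicates 1 to 3. No test was made. The genotype differences of Bcat1 were -0.81 ± 0.59 in preOCs and -1.02 ± 0.62 in BMMs (adjusted p = 0.38 and 0.33).

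**Figure D5:**
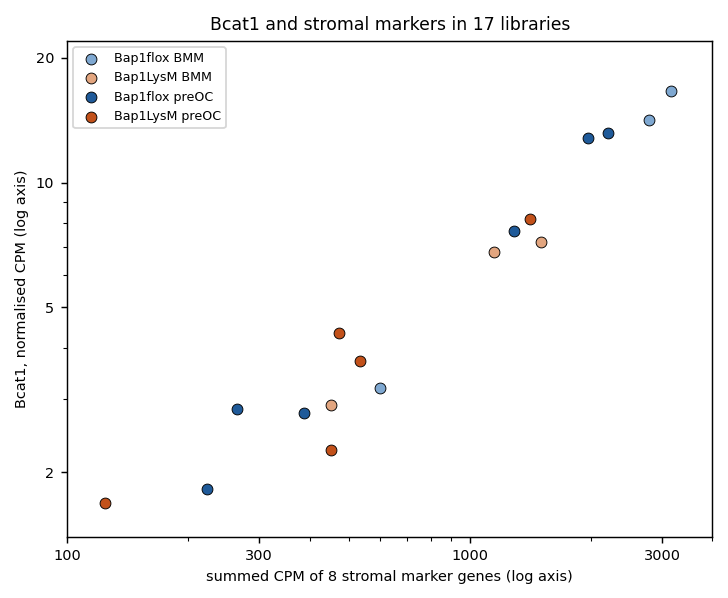
Each of the 17 points is a library, with the summed CPM of 8 stromal markers on the horizontal and the CPM of Bcat1 on the vertical axis, both logarithmic. The points rise from 124 and 1.69 CPM to 3160 and 16.6 CPM, and libraries of all 4 groups lie along the same band.

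Further genes of the pathway were listed to set the members in context. Of 18 remaining pathway genes 9 were tested. Il4i1, a secreted amino acid oxidase, was higher in Bap1LysM preOCs at 107 ± 56.5 CPM (SD, n = 5) against 10.9 ± 4.53 (SD, n = 6), a log2 fold change of 3.24 ± 0.43 (SE; adjusted p = 0.00091), and the other 8 did not pass. Among these 8, Mmut, the methylmalonyl-CoA mutase, gave 0.28 ± 0.21. In BMMs none of the 9 passed. Of all genes, 15.8% were called in preOCs and 5.32% in BMMs. With RANKL in Bap1flox 2 rose and 2 fell, where 58.1% of all genes were called. Among them Hsd17b10, the isoleucine-branch dehydrogenase, was up by 1.87 ± 0.15 on the log2 scale.

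Of 7 transporters of branched-chain amino acids tested, 2 were higher in Bap1LysM preOCs and none was lower, where 15.8% of all genes were called: Slc43a2 at 729 ± 142 against 410 ± 23 CPM (0.80 ± 0.12; adjusted p = 0.0019) and Slc7a7 at 21.2 ± 4.81 against 13.1 ± 1.86 CPM (0.66 ± 0.15; adjusted p = 0.013). In BMMs Slc7a8 alone was higher (1.09 ± 0.16; adjusted p = 0.022), where 5.32% of all genes were called. Of 14 cofactor genes 1 was higher and 2 were lower in Bap1LysM preOCs. Lmbrd1, which exports cobalamin from lysosomes, was higher (0.77 ± 0.19; adjusted p = 0.019). Lipt2, needed to attach the lipoate that Dbt carries, was lower (-1.09 ± 0.23; adjusted p = 0.0081), as was Hlcs, which attaches biotin to the carboxylases (-0.55 ± 0.14; adjusted p = 0.022). Of 3 electron transfer genes that take electrons from the acyl-CoA dehydrogenases none passed between genotypes, and all 3 rose with RANKL in Bap1flox (Etfa by 0.75 ± 0.13). Of 10 leucine sensing genes none passed between genotypes, and with RANKL in Bap1flox 3 rose and 4 fell, among them Sesn1 (-2.72 ± 0.15), where 58.1% of all genes were called.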

How the data were processed

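RNA was sequenced from 6 BMM and 11 preOC cultures as poly(A)-selected libraries with paired reads of 150 bases. The authors aligned reads with STAR 2.5.1a to GRCm38 (Ensembl release 76) and counted unique, unambiguous reads per gene with featureCounts 1.4.6-p5, and the deposited counts are not normalised. The deposited CPM and RPKM columns were recomputed from the counts by the scaling to library size and length and matched within 1e-06. They were not tested. Whether counting used strand is not given in the sources used here, so members with genes on the other strand (Bcat2, over 16% of its length, Oxct1 over 12.6%, and smaller stretches of Acaa1a, Aldh7a1, Pcca, Bcat1, Aldh6a1, Mccc1 and Hadha) and Acaa1a, which has the near copy Acaa1b, are uncertain.

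Symbols were joined to 97.5% of identifiers, and 355 ribosomal RNA genes were left out. Counts were tested with the quasi-likelihood test of edgeR 4.0.16 (R 4.3.3) on genes with CPM above 1 in at least 4 preOC libraries, or in 2 for the BMM and RANKL fits, with TMM factors and Benjamini-Hochberg adjustment over all genes tested at 0.05. Each standard error is the absolute log2 fold change divided by the square root of edgeR's F statistic. Printed CPM are TMM-normalised over the 17 libraries. Genotype was tested over 11 preOC and over 6 BMM libraries, and RANKL and its interaction with genotype in 1 fit of the 11 libraries of replicates 1 to 3. Total counts of 37967542 to 61369441 per library leave counting error small except for Ehhadh, Aox1 and Abat. Alternatives were voomWithQualityWeights (limma 3.58.1, the study's test), DESeq2 1.42.0, upper-quartile or RLE factors, stricter and looser filters, the library set as a term or apart, the replicate block, and each library left out. The tests were tried on simulated data first.

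The members and lists were chosen with earlier results of these data known. Values by library, or the lowest, median and highest of the 6 Bap1flox preOCs, are given for members past the threshold in a genotype comparison, for the 6 largest RANKL changes in Bap1flox, and for others that were chosen after their values were seen. Other pathway genes are named mainly if past the threshold between genotypes. The values of 1 gene that is counted are not reported here.

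Same-numbered BMM libraries of the genotypes deviated together (r = 0.506, 0.354 and 0.384, against -0.432 to 0.209 for other numbers). In preOCs the r of same-numbered libraries was 0.603, 0.716, 0.418, 0.678 and 0.507. Libraries of different number in the same set reached 0.67, 0.674 and 0.685 there, so pairing by number is not shown in preOCs. The main genotype fits are unpaired. In the genotype comparisons the fit with the block of same-numbered libraries is given where it changes a call. The r of the preOC pairs includes the difference between the library sets. With that removed it was 0.44, 0.37, 0.02, -0.10 and 0.07.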

Additional observations from a re-analysis of the deposited data

Results flagged for a closer look

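Of 74 groups of 5 or 6 preOC libraries examined, 1 member in 1 group had a library far from the others: Acaa2, a mitochondrial thiolase, was at 50.6 CPM in the preOC library labelled Bap1LysM 1, and at 87, 101, 93.3 and 87.8 CPM in the other Bap1LysM preOC libraries. Chance alone marks about 1 in 20 groups. The same library kept Lyz2 at 75.1% of the Bap1flox mean.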

How the results depend on the processing

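No called member changed direction under any alternative that gave it a value. Of the values of called members, 193 stayed past the threshold and 47 did not in the preOC genotype comparison, 40 and 15 in BMMs, 477 and 26 for RANKL in Bap1flox, and 349 and 49 for RANKL in Bap1LysM. Requiring CPM above 1 in every library takes Ehhadh and Aox1 out of the test. Depth limits Ehhadh and Aox1, with as few as 14 and 32 reads in a preOC library, and Abat.

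Counts of members called moved as follows, and the cause was not tested. In preOCs the 2 higher became 10 with voomWithQualityWeights, 1 with upper-quartile factors, 1 with no filter, 1 with CPM above 1 in every library, 0 in replicates 1 to 3 alone, 6 in replicates 4 to 6 alone and 4 in the fit of all 17 libraries, and 1 to 5 with single libraries left out. The 9 lower became 7 with no filter, 0 in replicates 1 to 3 alone and 5 to 10 with single libraries left out. In BMMs the 0 higher became 1 with DESeq2, voomWithQualityWeights or the replicate block. The 4 lower became 9 with DESeq2, 9 with voomWithQualityWeights, 8 with the replicate block and 8 in the fit of all libraries, and 0 to 5 with single libraries left out. For RANKL in Bap1flox the 8 higher became 13 with voomWithQualityWeights, which called 76.2% of all genes against 58.1%. In Bap1LysM the 7 higher became 3 with voomWithQualityWeights, 4 with no filter and 3 with Bap1LysM libraries only. They became 3 to 6 with single libraries left out, other than Bap1LysM preOC 1 or 2. The 12 lower became 7 with voomWithQualityWeights. The interaction had 1 member higher in the fit of all libraries against 0.

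Over all genes, the 2043 preOC calls became 7099 with voomWithQualityWeights, 4236 with the replicate block, 4349 with a term for library set, 4169 in replicates 4 to 6 alone and 4436 in the fit of all libraries, and 921 were higher against 699 of 2102 with upper-quartile factors. The 693 BMM calls became 2065 with DESeq2, 1772 with voomWithQualityWeights, 2107 with the block and 2013 in the fit of all libraries. With single libraries left out, the preOC calls ran from 1112 to 3087, passing 1.5 times either way without Bap1LysM preOC 4 (1112), Bap1LysM preOC 5 (1126), Bap1flox preOC 5 (1335) or Bap1LysM preOC 1 (3087). The BMM calls ran from 4 to 756, and were 4 without Bap1flox BMM 3, 7 without Bap1flox BMM 2, 84 without Bap1LysM BMM 2, 298 without Bap1flox BMM 1 and 367 without Bap1LysM BMM 1. For RANKL in Bap1LysM the 5308 calls became 2937 with voomWithQualityWeights and 2545 with Bap1LysM libraries only. The interaction's 0 calls became 117 with DESeq2 and 1444 in the fit of all libraries.

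With the replicate block the preOC comparison had 11 members lower and 2 higher, where 32.8% of all genes were called. RANKL in Bap1flox had 14 lower with the block, without Mccc1 and Mccc2, where 60% of all genes were called. In Bap1LysM the block gained Hadhb and Acat1 as higher (adjusted p = 0.029 and 0.027) and lost Dbt and Aldh1b1 (0.1 and 0.077). BMM and preOC libraries of 1 number share only that number (r = -0.225, 0.487 and 0.532 in Bap1flox, 0.36 and 0.271 in Bap1LysM).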
